A study of Rattus norvegicus with 15 samples.

Results

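Rat hepatocytes given 2,7-naphthalenediol were compared with rat hepatocytes given naphthalene, the parent hydrocarbon, which lacks the hydroxyl group that the diol carries on each ring. The arrays were chosen by their titles, 3 for 2,7-naphthalenediol and 3 for naphthalene, which is 6 of the 15 arrays of the series. Every array held RNA from cryopreserved primary hepatocytes of male rats, with the strain spelled Wister in the labels. The cells were pre-cultured for 24 h and then exposed for 24 h to a compound at 30 µM or to DMSO, the vehicle. The other groups were DMSO, 1,5-naphthalenediol and 1-naphthol, with 3 arrays each. The compared groups matched in dose and time, so there was 1 pair of compounds and 1 contrast. The series text describes the replicates as separate experiments. The sources used here name no donors or cell lots, so the p-values measure the spread between these samples, which may be partly technical. Thawed hepatocytes kept in culture model the liver without its blood flow.

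Naphthalene is an aromatic hydrocarbon of fuel and mothballs. Liver cells oxidise it with cytochrome P450 enzymes to an epoxide, which rearranges to naphthols, is hydrolysed to a dihydrodiol, or is bound by glutathione. Naphthols and diols are conjugated with glucuronic acid or sulfate and exported, and some dihydroxylated naphthalenes can be oxidised to quinones. Planar aromatic compounds can activate the aryl hydrocarbon receptor (AhR), whose targets include Cyp1a1 and Aldh3a1. Quinones and other electrophiles free the transcription factor NRF2 from its inhibitor, and NRF2 then drives genes such as Nqo1, Hmox1 and Srxn1.

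The value used throughout is the level, the log2 intensity of a gene's probe minus its array's 75th percentile, and a difference is a difference of mean levels between groups of 3 arrays. Of 19783 genes tested, 10489 had a symbol. That percentile was 1718 to 2074 intensity units over the 15 arrays, and the share of spots clearly above background was 57.4% to 61%. The 33 genes of the hepatocyte identity list were all measured, and their summed level, in units of the 75th percentile, was 1090 to 1120 on the 2,7-naphthalenediol arrays and 1100 to 1130 on the naphthalene arrays. Albumin (Alb) lay at 6.17, 6.26 and 6.22 with 2,7-naphthalenediol and at 6.31, 6.25 and 6.31 with naphthalene, a difference of -0.08 (95% interval -0.16 to 0.01).

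The slide is the limit of this comparison. All 3 arrays of 2,7-naphthalenediol and all 3 of DMSO lay on slide 1, and all 3 of naphthalene and of 1-naphthol lay on slide 2, so compound and slide cannot be told apart from these 6 arrays. Only 1,5-naphthalenediol lay on both, with replicates 1 and 2 on slide 1 and replicate 3 on slide 2. Its slide 1 minus slide 2 difference was therefore estimated for every gene, as the slide block of a second limma fit. Below, the slide difference or the value with the block is printed for some genes only. Each compared group lay on 1 slide, so the difference with the block is the difference without it minus the slide difference. That block rests on 1 array of slide 2. It raised the median standard error of a difference from 0.07 to 0.12. Over all genes the standard deviation of the compound difference was 0.26 and that of the slide difference was 0.27. Within 1,5-naphthalenediol, replicates 1 and 2, which shared a slide, differed with a standard deviation of 0.21, and each differed from replicate 3 with one of 0.29.

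Without the block, limma over all 15 arrays called 3139 genes at an adjusted p below 0.05 (Benjamini-Hochberg), which is 15.9% of those tested. Of these, 1257 were higher with 2,7-naphthalenediol (6.35%) and 1882 were lower (9.51%). With each array scaled on its median instead, 55.4% of the called genes were higher, against 40% here, so the balance of directions is not settled. Only 135 called genes differed by 2-fold or more, 14 higher and 121 lower. With the slide block 4 genes were called (0.0202%), while 1844 had an unadjusted p below 0.05 in that fit. The slide difference itself was called for 884 genes (4.47%). It had the sign of the compound difference in 81.6% of the 3139 called genes, and 462 of them changed sign under the block. Across genes, which are not independent replicates, the compound difference correlated with the slide difference at r = 0.54 (Spearman's rho 0.42). For contrasts within a slide the same correlation was 0.24 for 2,7-naphthalenediol minus DMSO on slide 1 and 0.01 for 1-naphthol minus naphthalene on slide 2. The count of called genes also fell when single arrays were left out. It was 1845, 1974 and 1181 without 2,7-naphthalenediol replicate 1, 2 and 3, and 2092 and 1984 without naphthalene replicate 1 and 2.

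**Figure D1:**
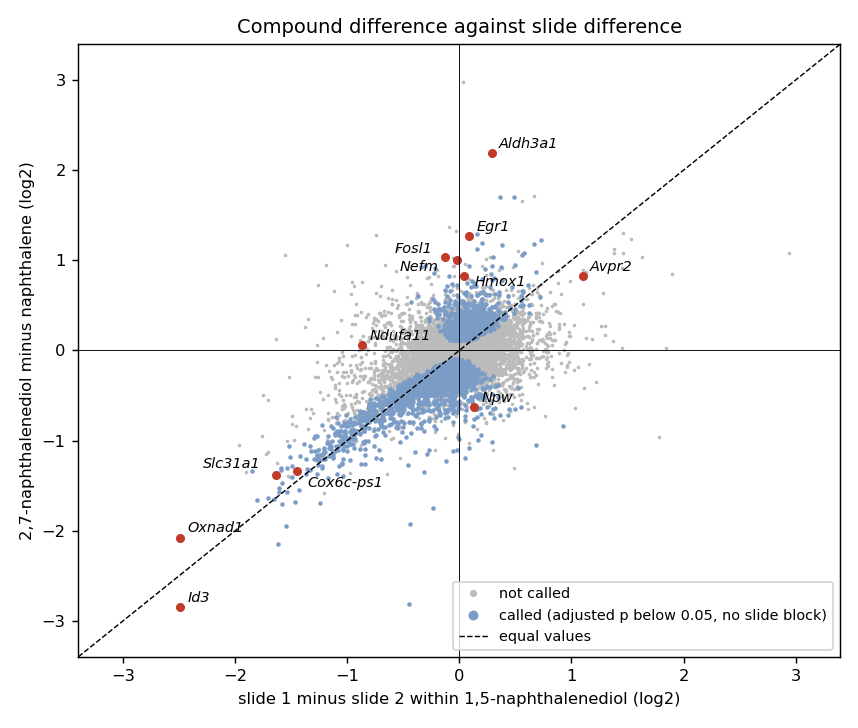
Each point is 1 of 19783 genes, with the slide 1 minus slide 2 difference within 1,5-naphthalenediol on the horizontal axis and the 2,7-naphthalenediol minus naphthalene difference on the vertical axis (both log2). Blue points were called without the slide block and red points are genes described in the text; many called lower genes lie along the dashed line of equal values, while Aldh3a1, Egr1, Fosl1, Nefm and Hmox1 lie high near a slide difference of 0.

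A called gene was set apart when its slide difference was at most 0.25 of its compound difference. This held for 428 genes higher with 2,7-naphthalenediol (2.16% of genes tested) and 396 lower (2.00%). These shares are the background for the counts of list members below, beside the 6.35% and 9.51% without that condition. The slide difference rests on 1 array of slide 2 and has a standard error of its own. For Nefm that error was 0.26 beside a slide difference of -0.02, for Rrm2 0.19 beside 0.02 and for Aldh3a1 0.14 beside 0.29. A small slide difference is therefore a small estimate and does not show that the slide had no effect. A close value with the block restates that small estimate and is not a separate result.

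Aldh3a1 differed most among the genes with a symbol that were higher. It encodes an aldehyde dehydrogenase that is a textbook target of AhR. Its level was -5.27, -5.67 and -5.43 on the 2,7-naphthalenediol arrays and -7.81, -7.54 and -7.58 on the naphthalene arrays. No naphthalene array had the probe well above background, so the fold is a bound. Aldh3a1 was at least 2.69-fold higher with 2,7-naphthalenediol, from the mean of its 3 arrays against the lowest signal well above background on each naphthalene array. The measured difference was 2.19 (SE 0.11, limma adjusted p = 1.84e-06), and 1.90 with the slide block (SE 0.17, adjusted p = 0.00216). DMSO, at -7.58, -7.56 and -7.51, lay with naphthalene although it shared slide 1 with the diol. The 1,5-naphthalenediol arrays read -3.85 and -3.89 on slide 1 and -4.16 on slide 2. Aldh3a1 was the only gene with a symbol called with one sign in both fits, and leaving out any 1 of the 6 arrays kept both calls. After normexp background correction with an offset of 50, the difference was 0.47 without the block, and the call of Aldh3a1 with the slide block was lost (0.25, adjusted p = 0.219).

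Other AhR genes differed less between the compounds. Of 12 AhR genes measured, Aldh3a1 among them, 3 were called higher and none lower. Of the 3, 2 had a small slide difference, and Aldh3a1 was 1 of these. Cyp1a1, the P450 most used as a readout of the receptor, lay at 0.26, 0.24 and 0.60 with 2,7-naphthalenediol and at -0.04, -0.13 and 0.06 with naphthalene. The groups did not overlap, and the difference was 0.40 (limma adjusted p = 0.0435), or 0.57 with the slide block (adjusted p = 0.458). The Cyp1a1 call was lost without any 1 of the 6 arrays, at adjusted p from 0.0528 (without 2,7-naphthalenediol replicate 2) to 0.158 (without 2,7-naphthalenediol replicate 3), and at 0.0597 without 2,7-naphthalenediol replicate 1 and 0.091, 0.122 and 0.0549 without naphthalene replicate 1, 2 and 3. The third gene was Nqo1, described with the redox genes. Cyp1a2, a liver P450 under the same receptor, differed by 0.11 (95% interval -0.03 to 0.25). DMSO, on the diol's slide, read -0.39, -0.16 and -0.20 for Cyp1a1. Against DMSO the diol differed by 0.61 for Cyp1a1 and 0.25 for Cyp1a2 (limma adjusted p = 0.011 and 0.0297). Naphthalene, across slides, differed from DMSO by 0.21 and 0.14 (adjusted p = 0.209 and 0.126). Ahrr, the AhR repressor, was not well above background on any of the 6 arrays.

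The P450s and hydrolases that start naphthalene metabolism gave small differences without the slide block. Of 11 measured, 3 were called higher, which fell to between 0 and 2 when 1 array was left out. Cyp2e1, which oxidises small molecules, differed by 0.06 (95% interval -0.19 to 0.31). With the block it came to 0.43 (0.06 to 0.79, limma adjusted p = 0.473), at a slide difference of -0.37. Cyp3a23-3a1, a steroid and drug hydroxylase, differed by 0.03 (-0.13 to 0.18), or by -0.06 with the block. Ephx1, which hydrolyses epoxides, differed by 0.29 and missed the threshold (limma adjusted p = 0.0536). It came to 0.07 with the block. Por, the reductase that passes electrons to every microsomal P450, was called at 0.29 but came to -0.02 with the slide block. Its level was 1.64, 1.72 and 1.73 with 2,7-naphthalenediol and 1.46, 1.43 and 1.31 with naphthalene. On the 1,5-naphthalenediol arrays it was 1.71 and 1.77 on slide 1 and 1.43 on slide 2. The Por call was lost without any of 5 arrays, at adjusted p from 0.0519 to 0.0946. DMSO, on the diol's slide, read 1.19, 1.38 and 1.32. Against DMSO the diol differed by 0.40 (limma adjusted p = 0.0122) and naphthalene, across slides, by 0.11 (adjusted p = 0.354).

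**Figure D2:**
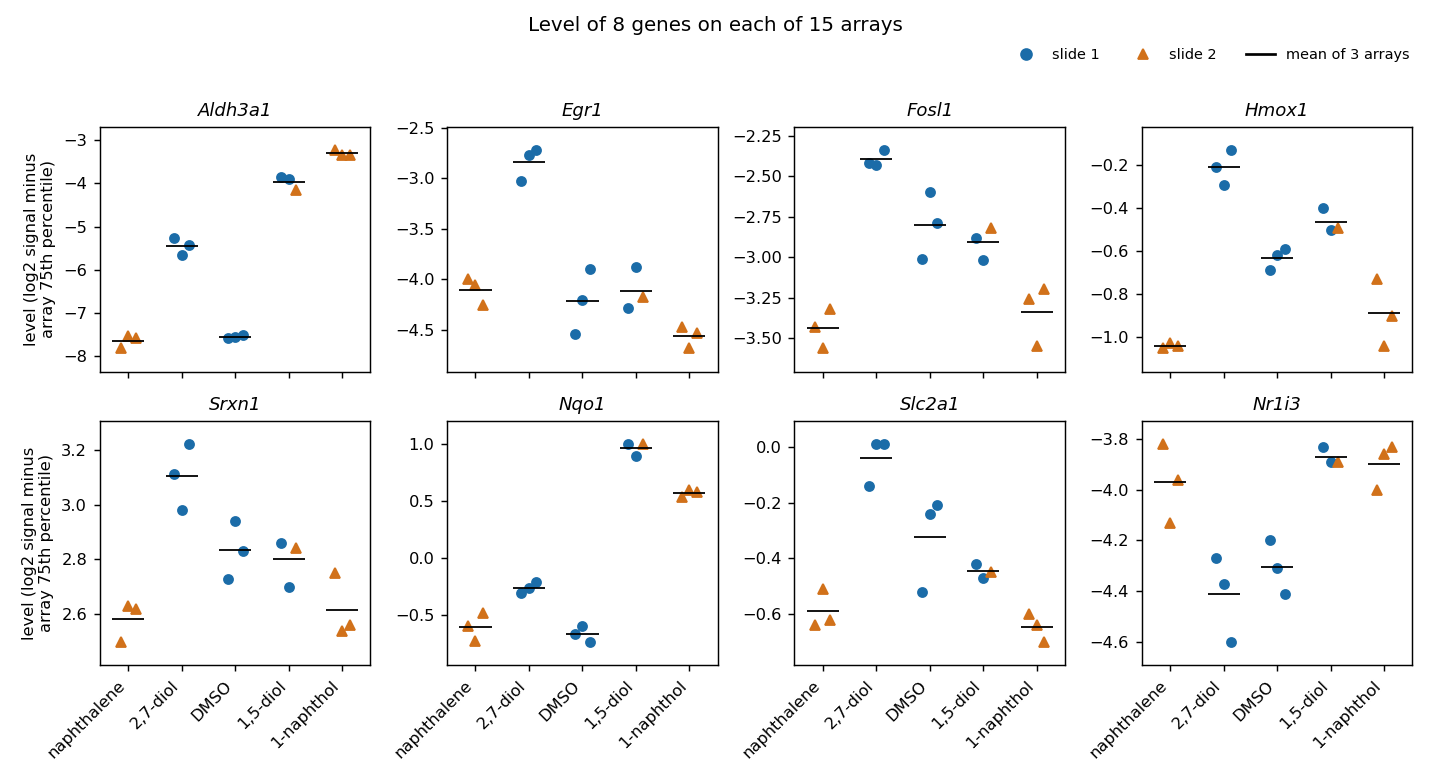
Level (log2 signal minus the array's 75th percentile) of 8 genes on each of the 15 arrays, by compound; circles are slide 1, triangles slide 2 and lines the means of 3 arrays. Aldh3a1, Egr1, Fosl1, Hmox1, Srxn1, Nqo1 and Slc2a1 were higher on all 3 of the 2,7-naphthalenediol arrays than on any naphthalene array, and Nr1i3 was lower; the 1,5-naphthalenediol triangle lies near its circles in most panels.

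Some redox and NRF2 genes were higher with 2,7-naphthalenediol. Of 43 measured, 17 were called higher, none was called lower and 26 were not called. Of the 17, 6 had a small slide difference. The list's median difference was 0.07, against 0.00 over all genes, and 0.07 with the slide block. Without 2,7-naphthalenediol replicate 3 the count was 11. The mean of the members' levels, each centred over the 15 arrays, was -0.03, -0.02 and 0.02 on the 2,7-naphthalenediol arrays. It was -0.18, -0.17 and -0.12 on the naphthalene arrays and -0.13, -0.12 and -0.10 on the DMSO arrays, and the 1,5-naphthalenediol values of 0.23, 0.26 and 0.21 were close across both slides.

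Hmox1, the heme oxygenase that breaks down heme, differed most of these. Its level was -0.21, -0.29 and -0.13 with 2,7-naphthalenediol and -1.05, -1.03 and -1.04 with naphthalene. That is 1.78-fold (0.83, SE 0.07, limma adjusted p = 0.000383), and with the slide block the difference was 0.79 (95% interval 0.51 to 1.07, adjusted p = 0.14). DMSO lay between the groups at -0.69, -0.62 and -0.59. The diol differed from DMSO, on the same slide, by 0.42 (adjusted p = 0.00487), and naphthalene differed from DMSO, across slides, by -0.41 (adjusted p = 0.00319). Both comparisons share the DMSO arrays. The slide difference of Hmox1 was 0.04.

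Srxn1, which repairs over-oxidised peroxiredoxins, read 3.11, 2.98 and 3.22 with 2,7-naphthalenediol and 2.50, 2.63 and 2.62 with naphthalene. The groups did not overlap, and the difference was 0.52 (adjusted p = 0.00564), or 0.57 with the slide block (adjusted p = 0.331). DMSO lay between the groups at 2.73, 2.94 and 2.83. Against DMSO the diol differed by 0.27 (limma adjusted p = 0.0475) and naphthalene, across slides, by -0.25 (adjusted p = 0.0418). Nqo1, a quinone reductase, read -0.30, -0.26 and -0.21 against -0.59, -0.72 and -0.48 with naphthalene. Its difference was 0.34 (adjusted p = 0.00742), and DMSO lay at -0.66, -0.59 and -0.73, level with naphthalene. Txnrd1, thioredoxin reductase, differed by 0.33 (adjusted p = 0.0155), a call lost without 2,7-naphthalenediol replicate 3 (adjusted p = 0.0625). Slc7a11, the cystine importer that feeds glutathione synthesis, differed by 0.42 (adjusted p = 0.0086), with a slide difference of 0.15 and a value of 0.27 with the block. Gclc, the catalytic subunit of the enzyme that starts glutathione synthesis, differed by only 0.18 (adjusted p = 0.0473). That call was lost without 2,7-naphthalenediol replicate 2 or 3 and without naphthalene replicate 1 or 2, at adjusted p of 0.108, 0.167, 0.145 and 0.0959.

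Among quinone, carbonyl and dihydrodiol reductases, 4 of 16 were called higher and none lower, and the count stayed at 4 whichever of the 6 arrays was left out. Besides Nqo1 they were Akr7a3, an aldehyde reductase (0.36, adjusted p = 0.00269), Aox1, aldehyde oxidase (0.31, adjusted p = 0.00296), and Akr1b8, a reductase of the aldose reductase family (0.26, adjusted p = 0.00855). With the slide block the values were 0.26, 0.21 and 0.20. Akr7a3 read 4.16, 4.19 and 4.18 against 3.83, 3.78 and 3.84 with naphthalene, and Aox1 read 2.72, 2.73 and 2.71 against 2.37, 2.42 and 2.43.

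Few conjugation and export genes were called, and over all genes tested the shares were 6.35% higher and 9.51% lower. In lists this short, such counts are not read as a result about these genes. Of 20 glutathione transferases 1 was called, Gstp1, higher by 0.26 (limma adjusted p = 0.00671). Gsta2, a transferase often induced with Nqo1, differed by 0.00 (95% interval -0.16 to 0.16). Of 22 genes of glucuronidation and sulfation, 1 was called higher and 1 lower. Ugdh, which makes the glucuronic acid donor, was higher by 0.32 (adjusted p = 0.0166), a call lost without 2,7-naphthalenediol replicate 3 or naphthalene replicate 1 or 2 (0.067, 0.0532 and 0.0549). Sult1a1, the phenol sulfotransferase, was 0.12 lower (-0.12, adjusted p = 0.0388), which held only with all 6 arrays or without naphthalene replicate 1; the others gave 0.0546 to 0.122. Ugt1a6, which glucuronidates planar phenols, differed by -0.02 (95% interval -0.11 to 0.06) by its brightest probe, but by 0.18 when its probes were averaged, so its probes disagree. Abcc2, the exporter of conjugates into bile, differed by -0.08 (-0.19 to 0.03). Of 11 efflux transporters, 1 was called higher and none lower. It was Abcc3, which exports conjugates towards the blood, higher by 0.29 (adjusted p = 0.0233). That call was lost without 2,7-naphthalenediol replicate 2 or 3 or naphthalene replicate 1 or 2, at adjusted p of 0.073, 0.0862, 0.0746 and 0.0518. Unless marked as with the slide block, the intervals given for genes that were not called come from the fit without it. They bound compound and slide together and do not show that the compounds act alike.

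Immediate early and growth-signal genes, switched on within minutes by growth factors and stress, were higher with 2,7-naphthalenediol more often than lower. Of 28 measured, 15 were called higher and 3 lower, and 10 of the higher had a small slide difference. The median difference was 0.23, or 0.24 with the slide block, and the median slide difference was 0.00. The mean of the members' centred levels was 0.18 on each 2,7-naphthalenediol array and 0.02, -0.03 and -0.05 on the naphthalene arrays. It was -0.04, 0.05 and 0.07 on the DMSO arrays. The 1,5-naphthalenediol arrays gave -0.04 on both slides. The count of 15 fell to 8 and 9 without 2,7-naphthalenediol replicate 2 and 3, and to 11 or 12 without any other array. The 3 lower calls fell to 0 or 1 whichever array was left out, and to 0 with each array scaled on its median.

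**Figure D3:**
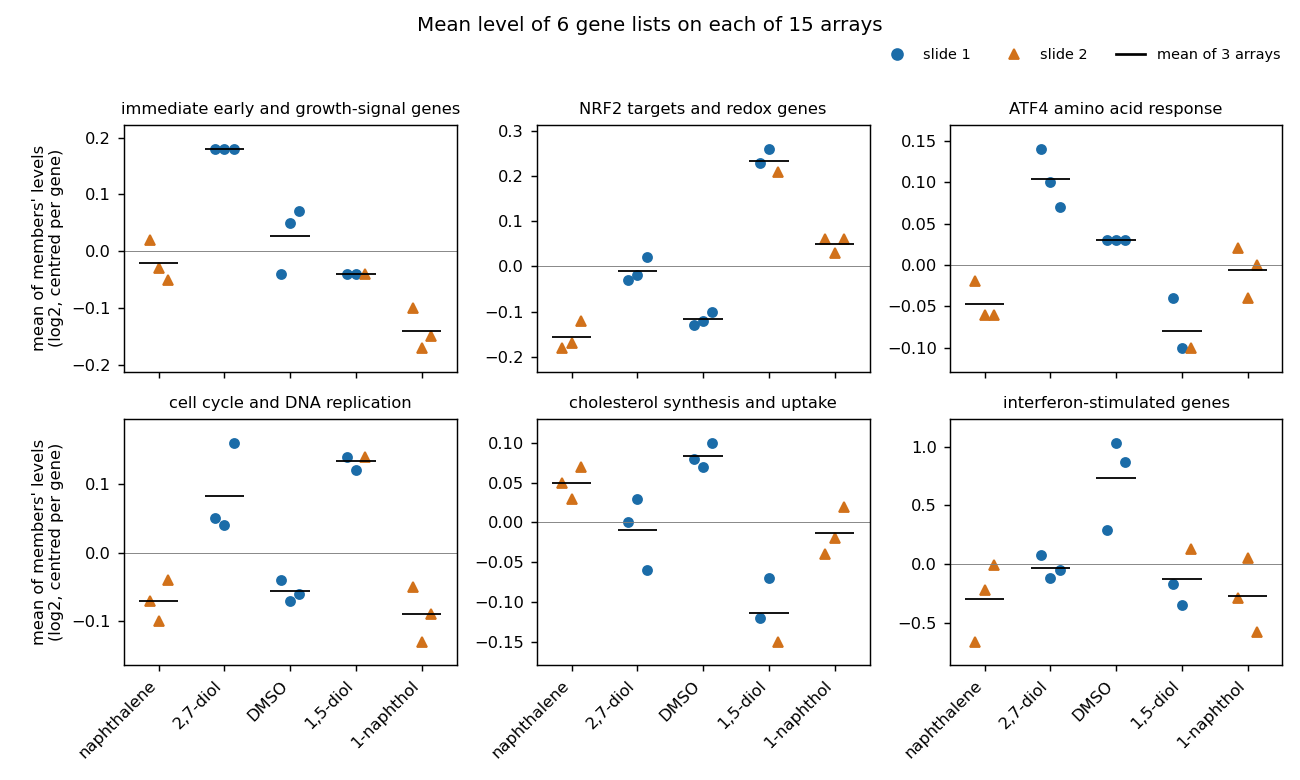
Mean of the members' levels, each gene centred over the 15 arrays (log2), for 6 gene lists on each array; circles are slide 1, triangles slide 2 and lines the means of 3 arrays. For immediate early genes the 2,7-naphthalenediol arrays, each at 0.18, lie above all the others, and the 1,5-naphthalenediol arrays coincide across slides; for interferon-stimulated genes the arrays of a group spread widely.

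Egr1, a zinc finger factor induced by growth signals and stress, was 2.41-fold higher with 2,7-naphthalenediol. Its level was -3.03, -2.77 and -2.72 with the diol and -4.00, -4.06 and -4.26 with naphthalene. The difference was 1.27 (SE 0.15, limma adjusted p = 0.00269), and 1.18 with the slide block (95% interval 0.54 to 1.81, adjusted p = 0.297). The DMSO arrays, on the diol's slide, read -4.54, -4.21 and -3.90, so all of them lay below the 3 diol arrays. The 1,5-naphthalenediol arrays read -4.29, -3.88 and -4.18 and also lay below them.

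Fosl1, a partner of JUN in the AP-1 factor, was 2.06-fold higher. It read -2.42, -2.43 and -2.34 with 2,7-naphthalenediol and -3.43, -3.56 and -3.32 with naphthalene. The difference was 1.04 (SE 0.11, adjusted p = 0.00177), or 1.17 with the slide block (95% interval 0.73 to 1.62, adjusted p = 0.176). DMSO read -3.01, -2.60 and -2.79. Against DMSO the diol differed by 0.40 (adjusted p = 0.0405) and naphthalene, across slides, by -0.64 (adjusted p = 0.00356). Atf3, a stress-induced factor of the same family, read 1.35, 1.49 and 1.41 against 0.95, 0.97 and 0.99 with naphthalene, a difference of 0.45 (adjusted p = 0.00844). DMSO, at 1.06, 1.29 and 1.39, overlapped the diol.

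The list was not uniform. Egr2, a relative of Egr1, was lower with 2,7-naphthalenediol by 0.32 (-0.32, adjusted p = 0.0389), a call lost without any 1 of the 6 arrays (0.0625 to 0.12). Nr4a2, an orphan nuclear receptor, was called higher at 0.42 but came to -0.07 with the block. Its 1,5-naphthalenediol values of -3.59 and -3.58 on slide 1 and -4.08 on slide 2 mirror its 2,7-naphthalenediol values (-3.59, -3.61 and -3.72) and naphthalene values (-4.12, -3.88 and -4.19).

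Promoters of Fosl1, Srxn1 and Nqo1 are shown because these genes, of the AP-1 and NRF2 groups, were higher together. The RefSeq table (build GRCr8) held a promoter for 30 of 37 genes chosen by name for this comparison. Each sequence runs from 250 bases before the gene's start to 50 after, on the gene's strand. Capitals mark matches, on either strand, to the core of the AhR element (GCGTG), the antioxidant response element (TGACNNNGC) and the AP-1 site (TGANTCA). Their windows are chr1:212183635-212183934 (plus strand), chr3:161064562-161064861 (plus strand) and chr19:52220218-52220517 (minus strand).
Fosl1: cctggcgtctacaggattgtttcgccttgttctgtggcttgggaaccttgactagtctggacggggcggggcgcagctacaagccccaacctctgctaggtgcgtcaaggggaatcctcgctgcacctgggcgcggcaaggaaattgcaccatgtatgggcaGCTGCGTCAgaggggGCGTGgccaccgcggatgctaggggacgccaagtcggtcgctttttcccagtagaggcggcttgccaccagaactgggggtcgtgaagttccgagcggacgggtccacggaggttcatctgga
Srxn1: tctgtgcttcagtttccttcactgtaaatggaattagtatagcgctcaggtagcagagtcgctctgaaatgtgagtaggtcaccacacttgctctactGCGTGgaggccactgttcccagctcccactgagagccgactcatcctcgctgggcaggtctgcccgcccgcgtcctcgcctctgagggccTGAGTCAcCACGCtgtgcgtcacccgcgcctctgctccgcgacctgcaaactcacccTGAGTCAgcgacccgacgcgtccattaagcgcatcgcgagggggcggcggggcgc
Nqo1: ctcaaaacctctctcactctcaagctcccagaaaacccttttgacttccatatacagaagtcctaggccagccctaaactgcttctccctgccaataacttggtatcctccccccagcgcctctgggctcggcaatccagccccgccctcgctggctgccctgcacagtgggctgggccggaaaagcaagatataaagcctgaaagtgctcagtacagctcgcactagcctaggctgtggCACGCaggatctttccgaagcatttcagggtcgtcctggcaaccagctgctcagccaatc
The Fosl1 window held 1 antioxidant response element and 1 AhR core. The Srxn1 window held 2 AP-1 sites and 2 AhR cores, and the Nqo1 window held 1 AhR core. Of 33469 rat promoters of 300 bases, 29.7% held the AhR core, 12.1% the antioxidant response element and 7.33% the AP-1 site. These are letter matches within a short window, and binding was not measured.

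Some genes of the amino acid and protein folding responses were called higher with 2,7-naphthalenediol. Of 37 genes of the ATF4 amino acid response, 13 were called higher and none lower, 4 with a small slide difference, at a median of 0.13 (0.12 with the block). The count was 7 without 2,7-naphthalenediol replicate 1 and 8 without naphthalene replicate 2. Slc3a2, the heavy chain of amino acid exchangers, read 1.99, 1.91 and 1.99 against 1.50, 1.59 and 1.58 with naphthalene (difference 0.41, adjusted p = 0.00269). DMSO, at 1.87, 2.03 and 1.96, overlapped the diol. Atf4 itself was higher by 0.24 (adjusted p = 0.00659) and Iars1, an isoleucine tRNA ligase, by 0.26 (adjusted p = 0.00307). For Slc3a2, Iars1 and Atf4 the diol differed from DMSO, its slide mate, by 0.01, 0.06 and 0.01, and naphthalene by -0.40, -0.20 and -0.22, so the difference lay between naphthalene on slide 2 and both groups on slide 1. Their slide differences within 1,5-naphthalenediol were 0.04, 0.03 and 0.09. Ddit3, a factor of prolonged stress, differed by 0.07 (95% interval -0.19 to 0.33), or by 0.34 with the block (-0.10 to 0.79).

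Of 30 chaperones and unfolded protein response genes of the endoplasmic reticulum, 12 were called higher and 1 lower, but only 1 of the higher had a small slide difference, and the median fell from 0.13 to 0.06 with the block. The count was 7 without 2,7-naphthalenediol replicate 2. The exception was Dnajb9, a cochaperone, which read -0.09, -0.09 and -0.08 with 2,7-naphthalenediol and -0.51, -0.39 and -0.46 with naphthalene. It differed by 0.37 (SE 0.03, adjusted p = 0.000849), and by 0.36 with the block (adjusted p = 0.176). Hspa5, the main chaperone there, differed by 0.30 (adjusted p = 0.00483), or 0.21 with the block. Of 22 heat shock chaperones, 6 were called higher, and this fell to 2 without 2,7-naphthalenediol replicate 1 or 3 or naphthalene replicate 1, and to 3 without naphthalene replicate 2 or 3.

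Of 38 cell cycle and DNA replication genes, 9 were called higher and none lower, 6 with a small slide difference, at a median of 0.13 (0.15 with the block). The count was 5 and 2 without 2,7-naphthalenediol replicate 1 and 3 and 4 and 3 without naphthalene replicate 1 and 2. Ccnb1, the mitotic cyclin B1, read -4.79, -4.77 and -4.57 against -5.30, -5.29 and -5.07 with naphthalene (difference 0.51, adjusted p = 0.0085), while DMSO read -4.77, -4.97 and -4.69. Bub1, a mitotic checkpoint kinase, was higher by 0.28 (adjusted p = 0.00607). Of 23 p53 targets, 7 were called higher and 2 lower. Plk3, a stress-responsive kinase, was 1.46-fold higher, at -1.06, -1.13 and -0.98 against -1.52, -1.65 and -1.65 (difference 0.55, adjusted p = 0.00607). Cdkn1a, the p53 target that halts the cell cycle, was 0.12 lower (-0.12, adjusted p = 0.0375), a call lost without any 1 of the 6 arrays (0.0512 to 0.118). The count of 7 was 4 without 2,7-naphthalenediol replicate 3 or naphthalene replicate 1. The 2 lower calls fell to 0 or 1 whichever of the 6 arrays was left out, and to 0 with each array scaled on its median. Of 29 cytoskeletal genes 5 were called higher, all with a small slide difference, and 1 was called lower, at a median of 0.02. The count was 3 without 2,7-naphthalenediol replicate 1 or 3 or naphthalene replicate 1. The tubulins Tubb6, Tuba1c and Tubb4b were among them, at 0.31, 0.27 and 0.18 (adjusted p = 0.00826, 0.0102 and 0.0116).

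Slc2a1, the glucose transporter GLUT1, was 1.47-fold higher with 2,7-naphthalenediol. It read -0.14, 0.01 and 0.01 against -0.64, -0.51 and -0.62 with naphthalene (difference 0.55, adjusted p = 0.00354), and 0.54 with the block (adjusted p = 0.331). DMSO read -0.52, -0.24 and -0.21, below the diol, with replicate 1 inside the naphthalene range. Of 21 chemokines and feedback genes of NF-kB or STAT3, 5 were called higher and 1 lower, with 3 higher without 2,7-naphthalenediol replicate 2 or 3 or naphthalene replicate 2. Cxcl1, a neutrophil chemokine, read -1.06, -0.98 and -0.98 against -1.54, -1.43 and -1.26 (difference 0.40, adjusted p = 0.00904). DMSO, at -1.66, -1.45 and -1.49, lay with naphthalene. Socs3, a feedback inhibitor of cytokine signalling, was higher by 0.25 (adjusted p = 0.00826).

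Fewer named genes were lower. Of 26 cholesterol genes, 5 were called lower and none higher, 3 with a small slide difference. The count was 3 and 1 without 2,7-naphthalenediol replicate 2 and 3 and 3 without naphthalene replicate 1. It was 2 with each array scaled on its median and 11 after normexp. Acat2, a thiolase that feeds sterol synthesis, read 2.00, 1.99 and 1.96 against 2.24, 2.24 and 2.35 with naphthalene. It was 0.29 lower (-0.29, adjusted p = 0.00371), or -0.31 with the block (adjusted p = 0.289), and DMSO, at 2.30, 2.31 and 2.40, lay with naphthalene. Hmgcs1, an early enzyme of the pathway, differed by -0.09 (95% interval -0.19 to 0.02). Nr1i3, the constitutive androstane receptor, read -4.27, -4.37 and -4.60 against -3.82, -4.13 and -3.96 (difference -0.44, adjusted p = 0.0124). DMSO, at -4.20, -4.31 and -4.41, lay with the diol on their shared slide, and the 1,5-naphthalenediol values of -3.83, -3.89 and -3.89 were alike on both slides. Dbp, a clock output factor, read -2.80, -2.80 and -3.12 against -2.28, -2.40 and -2.54 (difference -0.50, adjusted p = 0.0119). Cry1, a clock repressor, was higher by 0.40 (adjusted p = 0.00327).

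The genes that differed most at a small slide difference, chosen after their values were seen, included some with no known hepatocyte role. Nefm, a neurofilament subunit, was 2.00-fold higher, at -4.54, -4.45 and -5.11 against -5.40, -5.69 and -6.01 with naphthalene. Its difference was 1.00 (limma adjusted p = 0.00695), or 1.02 with the block (adjusted p = 0.371). The closeness of the values follows from the small slide difference by which the gene was chosen. Npw, a neuropeptide precursor, read -3.32, -3.13 and -3.23 against -2.43, -2.63 and -2.71 (difference -0.63, adjusted p = 0.00329, or -0.76 with the block). Rrm2, a subunit of ribonucleotide reductase, read -1.42, -1.71 and -1.27 against -2.01, -2.17 and -1.86 (difference 0.55, adjusted p = 0.0134), a call lost without 2,7-naphthalenediol replicate 3 (0.0543).

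**Figure D4:**
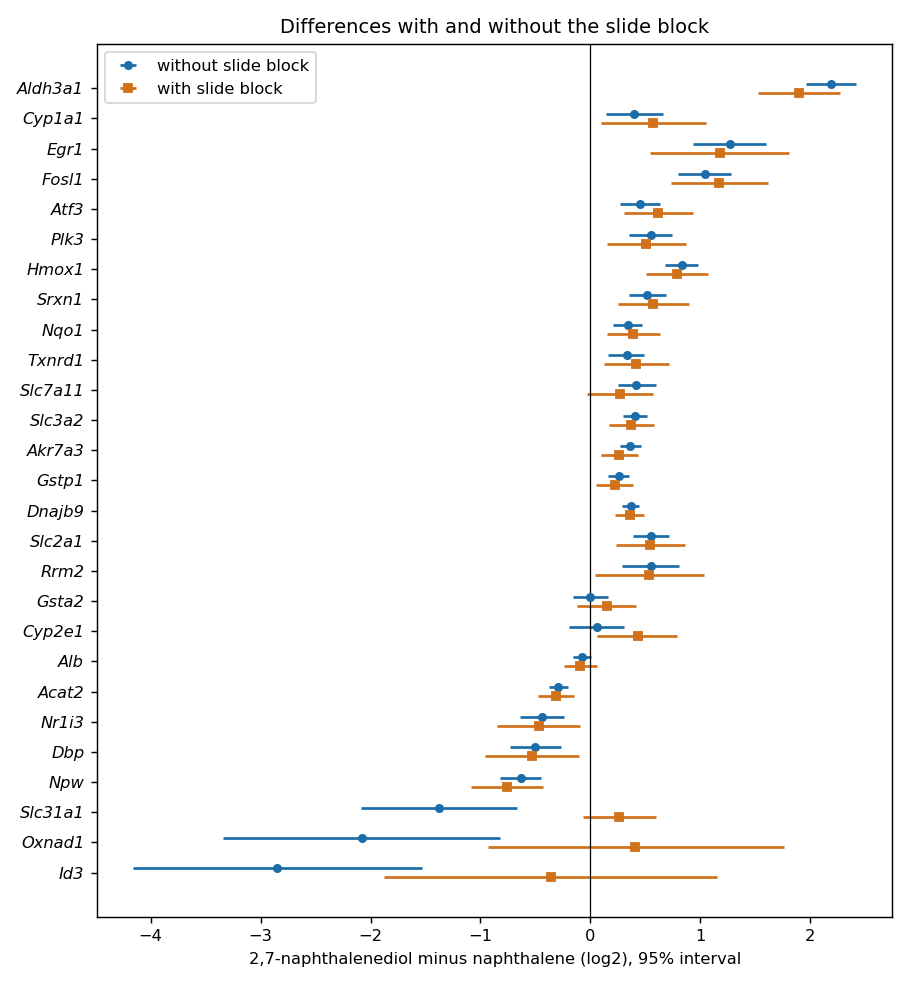
The 2,7-naphthalenediol minus naphthalene difference (log2) of 27 genes with its 95% interval, without the slide block (blue circles) and with it (orange squares). The 2 values of Aldh3a1, Egr1, Fosl1 and Hmox1 are close and the intervals widen with the block, while Slc31a1, Oxnad1 and Id3 move to near 0 or past it; the 2,7-naphthalenediol values of Oxnad1 and Id3 were not well above background.

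Most called differences of 2-fold or more were lower with 2,7-naphthalenediol, and few stayed that large with the slide block. It was 11 of the 121 lower genes and 6 of the 14 higher. In 35 of the 135 a group was not well above background on any of its arrays, which leaves only a bound. Id3, an inhibitor of helix-loop-helix factors, read -9.30, -7.88 and -7.49 with 2,7-naphthalenediol, not well above background on any of the 3 arrays. With naphthalene it read -5.57, -5.14 and -5.42. The difference was -2.85 (adjusted p = 0.0124; at least 2.94-fold lower). The 1,5-naphthalenediol arrays read -7.66 and -7.92 on slide 1 and -5.31 on slide 2, and with the block the difference was -0.36 (95% interval -1.88 to 1.15). Slc31a1, a copper importer, read -4.40, -4.30 and -4.32 against -3.11, -2.87 and -2.89 with naphthalene. For 1,5-naphthalenediol it read -4.59 and -4.64 on slide 1 and -2.97 on slide 2, and the difference of -1.38 became 0.26 with the block. Its call was also lost without 2,7-naphthalenediol replicate 3 (0.0551). Cox6c-ps1, a cytochrome oxidase pseudogene, went from -1.34 to 0.11 with the block. Oxnad1, an oxidoreductase, was not well above background on any 2,7-naphthalenediol array and was on 2 of the 3 naphthalene arrays, so no fold is given. Its call was lost without any 1 of the 6 arrays (0.0536 to 0.102). The slide difference within 1,5-naphthalenediol was -1.64 for Slc31a1 and -1.45 for Cox6c-ps1, in each case larger than the difference between the compounds. For Id3 and Oxnad1 the slide 1 values of both diols lay below the lowest signal well above background, so the sizes of their differences are not compared.

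**Figure D5:**
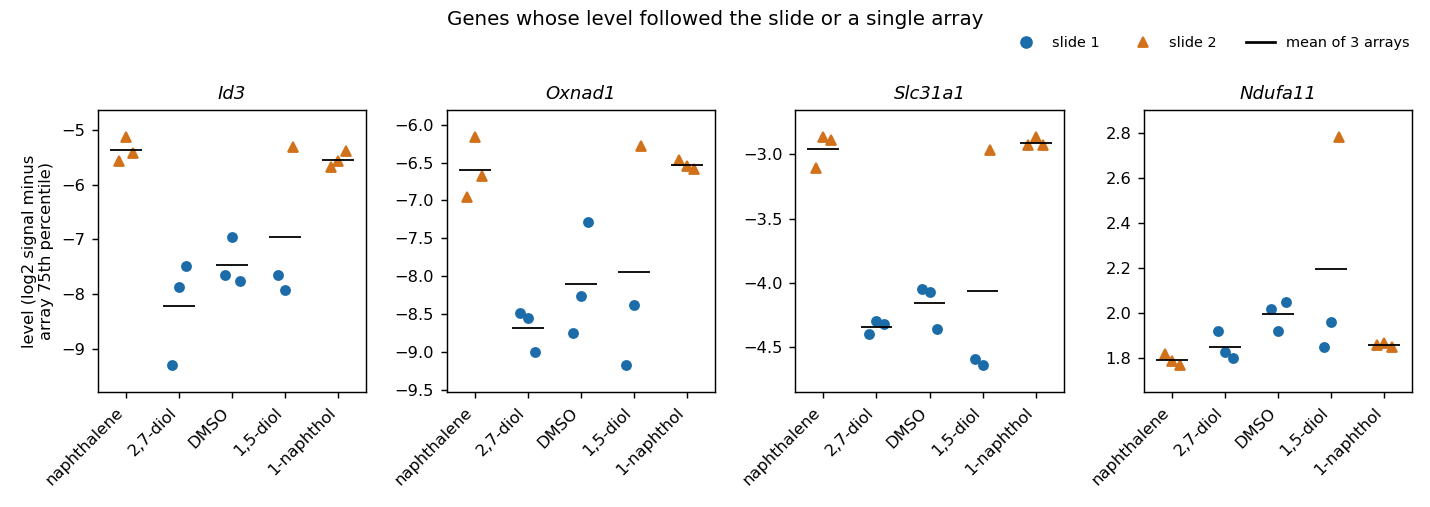
Level (log2 signal minus the array's 75th percentile) of Id3, Oxnad1, Slc31a1 and Ndufa11 on each of the 15 arrays; circles are slide 1, triangles slide 2 and lines the means of 3 arrays. In the first 3 panels every slide 2 array lies above every slide 1 array, and in the Ndufa11 panel 1,5-naphthalenediol replicate 3, at 2.78, stands alone.

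The block can also make a call. Ndufa11, a complex I subunit chosen here after its values were seen, differed by 0.06 without the block and by 0.93 with it (adjusted p = 0.00216). Its levels were 1.92, 1.83 and 1.80 with 2,7-naphthalenediol and 1.82, 1.79 and 1.77 with naphthalene. Only 1,5-naphthalenediol replicate 3 stood apart, at 2.78 against 1.85 and 1.96 for replicates 1 and 2. The other 2 genes called with the block were transcripts without a symbol, both lower in both fits.

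Interferon-stimulated genes gave no call among 52 measured, though single members differed by -0.71 to 1.71. The median difference was 0.16, or 0.58 with the slide block, and the median slide difference was -0.36. The arrays within a group varied: the mean of the members' centred levels was 0.08, -0.12 and -0.05 with 2,7-naphthalenediol, -0.66, -0.22 and -0.01 with naphthalene, and 0.29, 1.03 and 0.87 with DMSO. Mx1, an antiviral GTPase, read -0.33, -0.97 and -0.85 against -1.54, -0.83 and -0.88 (95% interval of the difference -0.63 to 1.36). With the block its difference was 1.20 (-0.58 to 2.97). Mt1, a metallothionein, differed by -0.06 (-0.14 to 0.03), and no gene of the 18 measured for metal handling was called.

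Few markers of other cell types were measured. Of 14 stellate, 16 macrophage, 14 endothelial, 11 bile duct and 16 lymphocyte markers, 5, 5, 5, 3 and 3 were measured. Their summed level, in units of the 75th percentile, was 1.76 to 1.96 with 2,7-naphthalenediol and 2.16 to 2.24 with naphthalene for endothelial cells, and 3.45 to 3.63 against 3.68 to 4 for bile duct cells. The endothelial sum ran from 1.8 to 2.24 within 1,5-naphthalenediol, which lay on both slides, and from 1.96 to 2.16 with DMSO. The bile duct sum ran from 3.58 to 3.75 and from 3.93 to 4.02 in the same groups. Stellate and macrophage sums overlapped, at 0.266 to 0.357 against 0.317 to 0.362 and 1.64 to 1.8 against 1.64 to 1.79. Lymphocyte sums were 0.0913 to 0.0999 against 0.105 to 0.112, with 0.0913 to 0.108 within 1,5-naphthalenediol and 0.0968 to 0.111 with DMSO. The only marker called was Epcam, a biliary surface protein, which read -1.37, -1.21 and -1.27 against -0.96, -0.89 and -0.83 (difference -0.39, adjusted p = 0.00863). In RNA from a whole culture, fewer cells of a type and less RNA per cell cannot be told apart, and the part of these markers in the other results was not tested.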

How the data were processed

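RNA was hybridised to 15 one-colour Agilent arrays, 1 per sample. The deposited files hold Cy3 intensity per spot from Feature Extraction 10.7.1.1; per the file headers it was background-subtracted and detrended within the array, not normalized between arrays, and the header names build rn4. From these values, control spots and spots marked as outliers (250 to 354 per array) were left out, log2 intensity minus the array's 75th percentile was taken and spots of a probe were averaged. A probe was kept if some group had it above background on all 3 arrays (23541 of 45598; 7 with a missing value were then dropped), and the brightest represented a gene. Names came from RefSeq (GRCr8): 21229 probes matched 1 symbol and the rest kept their identifier. Group means over 15 arrays were fitted with limma 3.58.1 (R 4.3.3, lmFit and eBayes), with and without slide as a block. Both fits were checked on simulated arrays without a slide effect. With a simulated slide effect on every gene, only the fit with the block was required to pass. The number of arrays limits the precision.

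The members and gene lists were chosen with earlier results of these data known. Named genes were those called in both fits, 37 listed genes where tested, up to 4 members per list with the smallest p under the block, the 3 per direction that changed sign under it, the 3 per direction with the largest slide difference, and, added after values were seen, the 15 per direction with the largest difference at a small slide difference. Not all genes that this rule picks are described. Replicate numbers did not pair samples: same-numbered residuals of the compared groups correlated at -0.09, 0.00 and 0.02. Alternatives were normexp (offset 50, on median spot and background signals), quantile and median scaling, other probe filters, averaged probes, each array left out, a replicate block and the 6 arrays alone.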

Additional observations from a re-analysis of the deposited data

How the results depend on the processing

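Of the 118 named genes called without the slide block, 49 kept their call whichever of the 6 arrays was left out. With the slide block 1 kept it, 110 kept their direction only and 7 turned. The called total of 3139 was 1022 with no filter on dim probes, 1861 from only the 6 arrays and 4 with the slide block, and 1181 to 2482 with 1 array left out. Genes higher numbered 349 with no filter, 521 from only the 6 arrays and 422 to 1000 with 1 left out. Genes lower numbered 3180 after normexp, 673 with no filter and 759 to 1482 with 1 left out. With the slide block the count was 16 with no filter and 2 to 7 with 1 array left out. The slide difference was called for 526 genes with no filter and 536 to 976 with 1 left out. Genes with a small slide difference were 154 higher with no filter (188 to 446 with 1 left out). The lower ones were 753 after normexp, 241 with median scaling, 152 with no filter and 177 to 375 with 1 left out. The higher share of the calls was 31.3% after normexp, 49% after quantile normalization and 28% from the 6 arrays. Apart from the left-out arrays and probes, the cause was not tested. With the slide block Por was -0.02, Avpr2 -0.28, Nherf2 -0.08, Nr4a2 -0.07, Slc31a1 0.26 and Cox6c-ps1 0.11. Oxnad1, not well above background with 2,7-naphthalenediol, was 0.41 with the block. Ugt1a6 was 0.18 with averaged probes. With no filter the higher counts were 11 for NRF2, 7 for immediate early, 7 for ATF4, 4 for endoplasmic reticulum and 3 for cell cycle genes, and from only the 6 arrays 11, 13, 7, 8 and 3. A replicate block called 2797 genes; 2 of 30 same-numbered pairs correlated above 0.1, and for 5 of 15 arrays the closest partner shared its number. The slide block could not be fitted without 1,5-naphthalenediol replicate 3, so its weight in that block has no check.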
